A study of Mus musculus with 12 samples.

Results

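Macrophages depend on macrophage colony-stimulating factor (M-CSF, encoded by Csf1) and on receptors for the other growth factors of blood cell formation. The transcripts of 9 such genes were followed: Csf1, its receptor Csf1r, the receptor subunits Csf2ra, Csf2rb, Csf2rb2 and Il3ra, and the receptors Csf3r, Flt3 and Kit. They were picked by name from the 38887 genes in the tables, by a rule that used no measured value, although earlier results of these data were known. The libraries came from bone marrow-derived macrophages (BMMs) of mice aged 3 to 4 months, grown from marrow for 6 days with M-CSF at 50 ng/ml. The KO mice carried loxP sites around exons 4 and 5 of Igf2bp2, which encodes an RNA-binding protein, and the myeloid Lyz2 locus drove Cre. The WT mice were littermates without floxed alleles, and Cre was present in only some of them, so that Cre and the deletion cannot be told apart. Cells stayed untreated (M0) or received 20 ng/ml IL-4 for 8 h (M2), which gives 4 groups of 3 libraries from 3 mice per genotype: WT M0, WT M2, KO M0 and KO M2. All 4 groups were therefore cultured with the protein that Csf1 encodes, whereas the values here concern the transcript that the cells make themselves.

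Per library, 20011792 to 39632770 expected counts were assigned to genes, with the lowest totals in WT M2 and the highest in KO M2. Igf2bp2 itself lay at 76.5 to 118 CPM (counts scaled to the library total) in untreated WT cells and 84.9 to 95.9 CPM in untreated KO cells, and after IL-4 at 178 to 233 CPM and 129 to 146 CPM. These values count the whole gene, including exons outside the deletion, and so do not check the genotype. Lyz2, into which Cre is inserted, lay at 4185 CPM or more in all 6 WT libraries and at 33.2 CPM or less in all 6 KO libraries. The low Lyz2 level and the deletion therefore cannot be told apart in any comparison of KO with WT. The 6 macrophage markers, among them Adgre1 and Cd68, summed to between 2679 and 3521 TPM (a level per length of transcript, scaled to the library total) in every library. Among them, IL-4 lowered Cd14 (756 to 85.1 TPM in WT, 703 to 91.4 TPM in KO) and Fcgr1 (75.1 to 35.2 TPM and 73.7 to 31.6 TPM) and raised Adgre1, and Itgam was higher in KO M0 (log2 fold change 0.45, edgeR adjusted p = 0.00396). In M2, Adgre1 was at 619 TPM in KO against 783 TPM in WT, which DESeq2 called lower and edgeR did not (log2 fold change -0.31, adjusted p = 0.0815). These 4 were named after their values were seen. Fewer cells of one kind and less RNA per cell cannot be told apart in such bulk samples.

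M-CSF is a secreted or membrane-bound dimer that keeps macrophages and their precursors alive and dividing, and CSF1R, a receptor tyrosine kinase, binds it as well as IL-34. The receptors for GM-CSF, IL-3 and IL-5 are built differently, as each pairs its own alpha chain with a common beta chain that recruits JAK2. The mouse has a duplicated beta chain gene: the product of Csf2rb serves all these cytokines, and that of Csf2rb2 serves IL-3 only. CSF3R binds G-CSF and is best known from neutrophils, while KIT and FLT3 are receptor tyrosine kinases of stem and progenitor cells, and KIT also of mast cells.

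Csf1r was by far the most abundant of the 9 transcripts in M0, at 763 ± 25.7 TPM in WT and 792 ± 26.7 TPM in KO (mean ± SD, n = 3). It ranked 210 and 206 by mean TPM among 12846 genes with enough counts to be tested. Csf2rb2 followed at 182 ± 27.4 TPM in WT M0, ahead of Csf2ra at 143 ± 3.24 TPM and Csf2rb at 139.5 ± 7.01 TPM, whose ranges overlapped. Il3ra lay lower, at 33.8 ± 1.94 TPM. Csf3r at 5.88 ± 1.46 TPM and Csf1 at 5.06 ± 0.331 TPM had overlapping ranges, Kit stood at 0.257 ± 0.117 TPM, and Flt3 was at 0. In M2 the order changed, since Csf2rb with 683 ± 13.3 TPM and Csf2rb2 with 505 ± 31.2 TPM in WT came next to Csf1r with 823 ± 17.6 TPM.

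**Figure D1:**
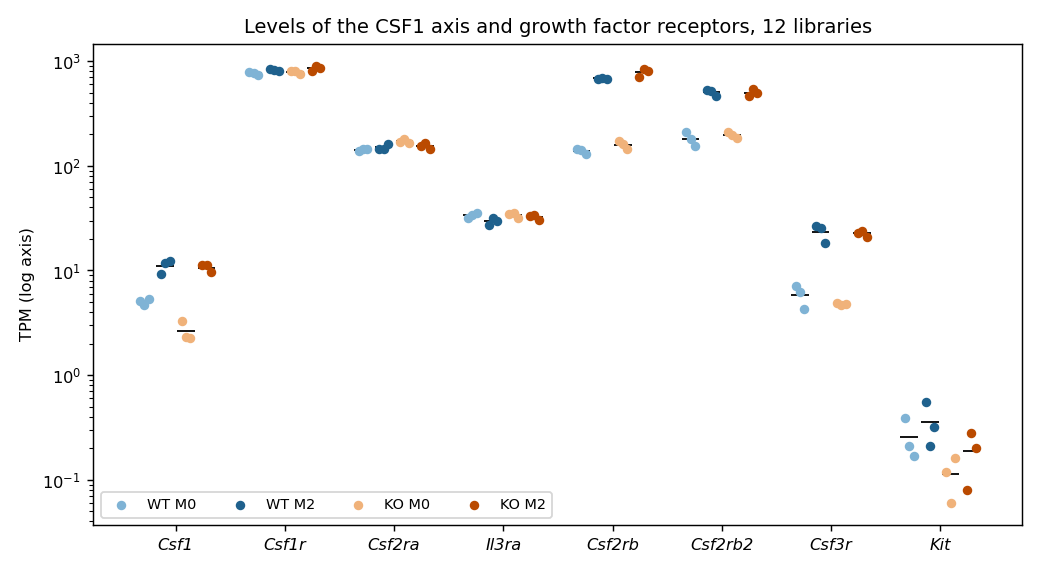
TPM of 8 genes on a log axis in the 12 libraries, with each point 1 library and each bar the mean of 3. Csf1r lies above 700 TPM in every group, Csf2rb and Csf2rb2 are higher in M2 than in M0, and Csf1 is lowest in KO M0. Flt3 is not drawn because 7 of its 12 values are 0.

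Differences between groups were tested with edgeR on the counts of all 12 libraries, and calls were made at an adjusted p under 0.05 over all 12846 genes. Of the 9 genes, 8 had enough counts to be tested and Flt3 did not. In M0, 3 of the 8 were called, with Csf2ra and Csf2rb higher and Csf1 lower in KO, where 9.78% of all genes were called, 5.50% higher and 4.27% lower. In M2, 0 of the 8 were called with edgeR against 2.68% of all genes (1.21% higher, 1.46% lower). Only Csf2rb had an unadjusted p under 0.05 there (1 of 8, against 20.3% of all genes), and DESeq2 called it. IL-4 raised 5 of the 8 in WT and 5 in KO, namely Csf1, Csf1r, Csf2rb, Csf2rb2 and Csf3r in both, and lowered 0 with edgeR. However, limma on TPM also called Csf2ra lower in KO, and 1 of 9 other settings called Il3ra lower in WT. Among all genes, IL-4 called 50.0% in WT (24.9% higher, 25.1% lower) and 52.8% in KO (26.8% higher, 26.0% lower). Among the 8, the genotypes differed in their IL-4 response for Csf1 alone in the fit without a mouse block (with the block, Csf2ra was called too), against 3.24% of all genes (1.11% more positive in KO, 2.13% more negative). The median log2 fold change over all genes was between -0.0076 and 0.014 in these comparisons, which share groups with each other and are therefore not independent.

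**Figure D2:**
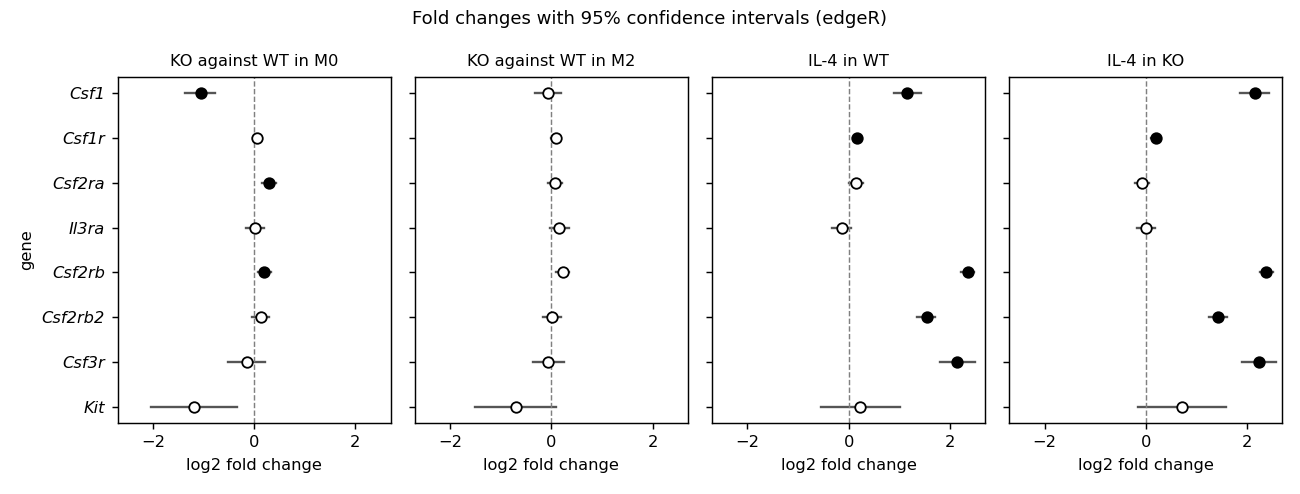
Log2 fold changes of 8 genes (points) with 95% confidence intervals (lines) from edgeR, for KO against WT in M0 and in M2 and for IL-4 against untreated in WT and in KO, 3 libraries per group. Filled points have an adjusted p under 0.05. Csf1, Csf2rb, Csf2rb2 and Csf3r respond to IL-4 by over 1 log2 unit in both genotypes, and the largest called difference between genotypes is that of Csf1 in M0.

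Csf1 (ENSMUSG00000014599) lies on the minus strand at chr3:107741048-107760469 in GRCm38, and no other gene of GENCODE M21 overlaps it. Because Csf1 was the only ligand of the set and had the largest called difference between genotypes in M0, the 250 bases before its start in RefSeq (GRCm38.p6, chr3:107760470-107760719, minus strand) are shown 5′ to 3′.
Csf1 promoter: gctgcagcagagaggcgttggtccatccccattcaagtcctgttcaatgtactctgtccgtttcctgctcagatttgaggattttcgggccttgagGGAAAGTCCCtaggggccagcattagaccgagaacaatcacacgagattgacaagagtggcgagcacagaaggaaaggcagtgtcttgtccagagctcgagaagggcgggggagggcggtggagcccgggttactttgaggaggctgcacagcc
The capitals mark the one match in this window to the NF-kB-type letters GGGACTTTCC, found as GGAAAGTCCC on the opposite strand, 154 to 145 bases before the start. Searched on both strands, these letters occur in 0.13% of the windows of the same length before 27025 genes. Neither TTCNNNNGAA, the spacing that STAT6 of the IL-4 pathway favours, nor TTCNNNGAA, that of other STAT proteins, occurs in this Csf1 window, against 5.86% and 7.18% of all windows, and nor does GAGGAA, a core of PU.1 sites (23.1%). The letters are a description of the sequence, and binding was not measured.

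In untreated WT macrophages, Csf1 was measured at 5.09, 4.71 and 5.37 TPM, and in untreated KO macrophages at 3.28, 2.29 and 2.28 TPM. All 3 KO values lay below all 3 WT values. Counts behind them were 276 to 295 per library in WT and 153 to 161 in KO. Csf1 was therefore 0.479 of its WT level in KO M0 (95% interval 0.39 to 0.588), or -1.06 on the log2 scale (SE 0.14, adjusted p = 0.000765 with edgeR). The call was kept in all 9 other settings and in all 6 fits without 1 library, with log2 fold changes between -1.23 and -0.65. The TPM ratio was 0.517, slightly nearer to 1, because TPM also divides by an estimated transcript length that ranged from 3083 to 3752 nucleotides for Csf1 with the mix of its isoforms.

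After IL-4 no difference in Csf1 was called. The values were 9.17, 11.9 and 12.3 TPM in WT M2 and 11.2, 11.2 and 9.61 TPM in KO M2, and the ranges overlapped. The log2 fold change was -0.07 with a 95% interval from -0.33 to 0.19 (edgeR adjusted p = 0.79), so that a difference as large as that in M0 lies outside the interval. IL-4 raised Csf1 2.24-fold in WT (log2 1.16, SE 0.13, edgeR adjusted p = 6.9e-06) and 4.45-fold in KO (log2 2.15, SE 0.13, edgeR adjusted p = 2.92e-08). Taken mouse by mouse in CPM, the ratio of M2 to M0 was 2.13, 2.32 and 2.25 in WT and 3.59, 5.31 and 4.67 in KO. Every KO ratio exceeded every WT ratio. The difference between the log2 responses was 0.99 (SE 0.18, 95% interval 0.60 to 1.39, adjusted p = 0.0128 with edgeR). It was called in all 12 fits without 1 library and in 5 of the 8 other settings, among them the fit with the mouse as a block (adjusted p = 0.00425), but not with limma on TPM (log2 values, highest adjusted p = 0.191). Across these 8 settings the difference ranged from 0.566 to 1.0.

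**Figure D3:**
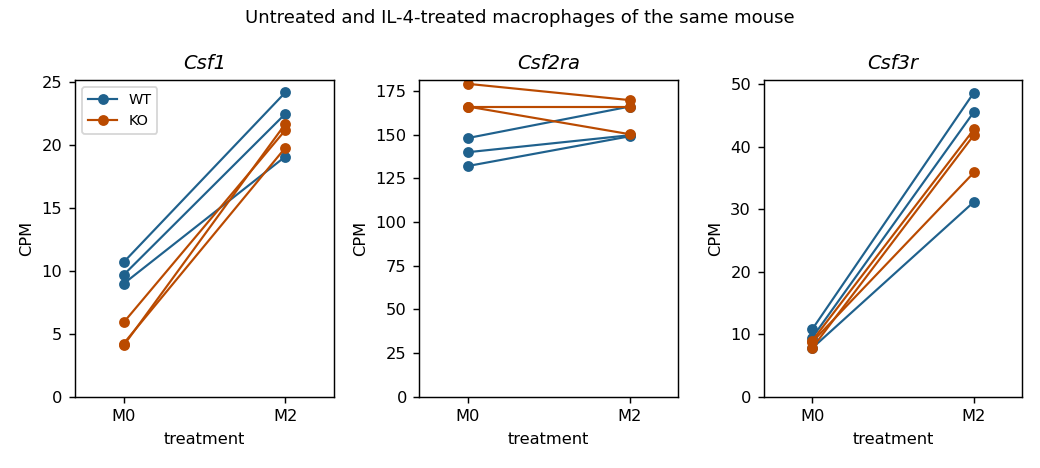
CPM of Csf1, Csf2ra and Csf3r in untreated (M0) and IL-4-treated (M2) macrophages, where each line joins the 2 libraries of 1 mouse number, 3 per genotype. The Csf1 lines start lower in KO, at 4.08 to 5.91 CPM against 8.99 to 10.7 CPM in WT, and end together, the Csf2ra lines start higher in KO, and the Csf3r lines of both genotypes run together.

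Fibroblast-like stromal cells and neutrophils can persist in marrow cultures, and stromal cells make M-CSF, so their markers are set beside Csf1. The 6 stromal markers summed to 21.8, 11.2 and 13.6 TPM in WT M0 and to 11.6, 12.9 and 3.54 TPM in KO M0, with the collagen genes Col1a1 and Col1a2 making up most of each sum. Of the 5 stromal markers tested, 0 were called in M0 with edgeR or DESeq2 and 0 had an unadjusted p under 0.05 (25.3% of all genes did), at a median of -0.72 on the log2 scale. In M2 the stromal sums were 12.6 to 23.1 TPM in WT and 3.27 to 11 TPM in KO, again with 0 of 5 called by edgeR or DESeq2, 4 of 5 at an unadjusted p under 0.05 (20.3% of all genes in M2) and a median of -1.21, while the ranges of Csf1 overlapped. The 7 neutrophil markers summed to 19.8 to 49.7 TPM in WT M0 and 15.5 to 16.8 TPM in KO M0, and S100a9 (log2 fold change -1.38, edgeR adjusted p = 0.0124) and Ltf (-2.09, adjusted p = 0.00759) were lower in KO, whereas Ly6g had 0 counts in all libraries. Their part in the Csf1 result was not tested.

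Csf1r (ENSMUSG00000024621), the receptor for M-CSF and IL-34, was measured at 788, 766 and 737 TPM in WT M0 and at 799, 814 and 762 TPM in KO M0. In M2 the values were 843, 817 and 809 TPM in WT and 806, 902 and 859 TPM in KO. The genotypes overlapped in both treatments, and the log2 fold changes were 0.06 (95% interval -0.03 to 0.14, edgeR adjusted p = 0.394) in M0 and 0.08 (-0.001 to 0.17, adjusted p = 0.252) in M2. IL-4 raised Csf1r by a small amount, 1.12-fold in WT (SE 0.04 on the log2 scale, edgeR adjusted p = 0.00324) and 1.14-fold in KO (SE 0.04, adjusted p = 0.00107). Both calls held in all 6 fits without 1 library but in only 6 of 9 other settings. In GRCm38 the gene spans chr18:61100598-61132149 on the plus strand and overlaps the microRNA gene Mir6983 and, on the opposite strand, Hmgxb3.

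Of 8 ligands of these receptors, Csf1 included, 7 were found by symbol, and Flt3l was not analysed here. Kitl, which encodes the KIT ligand stem cell factor, was the one other ligand with enough counts, at 30.4 ± 5.01 TPM in WT M0 and 73.5 ± 4.26 TPM in KO M0 (2.38-fold, edgeR adjusted p = 4.05e-05). In M2 it stood at 27.8 ± 2.44 TPM in WT and 103 ± 20.8 TPM in KO (3.68-fold, adjusted p = 1.31e-06). With IL-4 it rose in KO (log2 fold change 0.57, edgeR adjusted p = 0.000256) and was not called in WT (-0.05, adjusted p = 0.689), and the responses differed by 0.63 (adjusted p = 0.0297). Il34, which encodes the second ligand of CSF1R, had 23 counts in the 3 untreated WT libraries together and 15 in the untreated KO libraries, and 13 and 10 after IL-4. Csf3, encoding G-CSF, had 17 and 12 counts in WT M0 and KO M0 and 2 and 0 in WT M2 and KO M2. Csf2, encoding GM-CSF, had 5 counts in WT M0, 1 in WT M2 and 0 in both KO groups, Il5 had 1 count in all, and Il3 had 0 in the 12 libraries. A count of 0 in a library allows up to 3 counts, or 0.0757 to 0.15 CPM by library, as far as counting error goes.

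The alpha chains bind the cytokine and set which one a receptor answers to. Csf2ra (ENSMUSG00000059326, chr19:61223957-61228429, minus strand), the alpha chain for GM-CSF, was at 139, 145 and 144 TPM in WT M0 and at 170.1, 182 and 167 TPM in KO M0. The KO values lay above the WT values, 1.22-fold by edgeR (95% interval 1.11 to 1.34, adjusted p = 0.0161), and the call was kept in all 9 other settings and in 4 of the 6 fits without 1 library (lost without WT replicate 2 or KO replicate 2, highest adjusted p = 0.0761). In M2 the values were 146, 146 and 162 TPM in WT and 153, 167 and 146 TPM in KO, which overlapped (log2 fold change 0.07, 95% interval -0.07 to 0.20, edgeR adjusted p = 0.603). By mouse, the ratio of M2 to M0 in CPM was 1.13, 1.07 and 1.12 in WT and 0.999, 0.946 and 0.905 in KO. The difference between the responses was -0.22 (SE 0.09, edgeR adjusted p = 0.226), but with the mouse as a block its adjusted p was 0.0474, and that of the IL-4 response in WT fell from 0.0783 to 0.0134.

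Il3ra (ENSMUSG00000068758, chr14:14346275-14356011, plus strand) encodes the alpha chain for IL-3. WT libraries had 32, 33.6 and 35.8 TPM untreated and 27.1, 31.5 and 29.8 TPM with IL-4, and KO libraries had 34.8, 35.5 and 31.9 TPM untreated and 32.8, 34 and 30.1 TPM with IL-4. The genotypes overlapped in both treatments, and in WT the treated values lay just below the untreated ones. The log2 fold changes lay between -0.14 and 0.16 in the 4 comparisons, and 0 were called with edgeR (0 unadjusted p under 0.05, lowest 0.0852). Of the other settings, 1 called it, for IL-4 in WT (adjusted p = 0.0355). An antisense gene, Gm48860, overlaps it in GENCODE M21. Il5ra, the alpha chain for IL-5, had 0 counts in all 12 libraries.

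The genes of both beta chains are neighbours on chromosome 15 of GRCm38, with Csf2rb2 (ENSMUSG00000071714) at chr15:78282507-78305721 on the minus strand and Csf2rb (ENSMUSG00000071713) at chr15:78325752-78353847 on the plus strand, 20030 bases apart and with no annotated gene between them. Their coding sequences, of 2634 and 2688 bases, were identical at 95.2% of 2628 aligned positions. As reads were 75 nt long, the transcripts were cut into all windows of 75 bases, and 11% of the Csf2rb windows and 11.1% of the Csf2rb2 windows occurred unchanged in the other transcript. A read from such a window cannot be assigned by its letters. The following coding stretch of exon 7 of both genes (chr15:78341391-78341465, plus strand, and chr15:78291844-78291918, minus strand) is an example with 0 differences.
Csf2rb, exon 7: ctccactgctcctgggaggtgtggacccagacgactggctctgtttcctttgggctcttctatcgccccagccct
Csf2rb2, exon 7: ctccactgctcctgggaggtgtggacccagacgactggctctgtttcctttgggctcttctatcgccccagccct
In contrast, this stretch of exon 4 (chr15:78338905-78338979, plus strand, and chr15:78294352-78294426, minus strand) holds 14 differences, the most of any coding window within 1 exon and without gaps, and they are in capitals.
Csf2rb, exon 4: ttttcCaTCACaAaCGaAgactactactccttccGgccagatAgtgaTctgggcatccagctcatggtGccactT
Csf2rb2, exon 4: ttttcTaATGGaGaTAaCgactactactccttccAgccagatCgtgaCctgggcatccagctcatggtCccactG
The posterior SD of the deposited counts, which reflects this ambiguity, was between 0.058% and 0.21% of the count for both genes.

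The promoter of Csf2rb2 in RefSeq (GRCm38.p6, chr15:78305722-78305971, minus strand) is shown because IL-4 raised the gene; that of Csf2rb was not in the table used.
Csf2rb2 promoter: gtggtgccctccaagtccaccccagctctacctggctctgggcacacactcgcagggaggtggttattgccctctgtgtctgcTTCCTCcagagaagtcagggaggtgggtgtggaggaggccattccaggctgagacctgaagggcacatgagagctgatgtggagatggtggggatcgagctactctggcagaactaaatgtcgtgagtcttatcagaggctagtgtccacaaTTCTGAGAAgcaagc
The first capitals mark TTCCTC, which is GAGGAA on the opposite strand, 167 to 162 bases before the start, and the second mark TTCTGAGAA, a match to TTCNNNGAA 15 to 7 bases before the start. The former letters are found in 23.1% and the latter in 7.18% of all windows, and TTCNNNNGAA is not in this window. The window before Csf3r, which IL-4 raised by a larger fold than Csf2rb2, holds neither STAT spacing. It holds GAGGAA 86 to 81 bases before the start. A role of these letters in the response to IL-4 was not tested.

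Csf2rb had the largest fold with IL-4 among the receptor genes, although its interval overlapped that of Csf3r. It was at 144, 143 and 131 TPM in WT M0 and at 682, 697 and 671 TPM in WT M2, and at 172, 160.4 and 146 TPM in KO M0 and 709, 848 and 797 TPM in KO M2. The treated values lay far above the untreated ones in both genotypes, with a fold of 5.12 in WT (log2 2.36, SE 0.06, edgeR adjusted p = 1.24e-11) and 5.2 in KO (log2 2.38, SE 0.06, adjusted p = 1.04e-11). The difference between the responses was 0.02 with a 95% interval from -0.15 to 0.20. KO values lay above WT values in each treatment without overlap, by 1.15-fold in M0 (edgeR adjusted p = 0.0457) and 1.17-fold in M2 (adjusted p = 0.0585). Both of these are close to the threshold: in M0 the call was kept in 1 of 6 fits without 1 library and in 5 of 9 other settings. In M2 a call was made in 2 of 9 other settings and in the fit without KO replicate 1.

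Csf2rb2 rose with IL-4 as well, from 209, 182 and 155 TPM to 529, 516 and 469 TPM in WT and from 210.4, 196 and 185 TPM to 463, 538 and 501 TPM in KO. That was 2.91-fold in WT (log2 1.54, SE 0.08, edgeR adjusted p = 7.39e-09) and 2.69-fold in KO (log2 1.43, SE 0.08, adjusted p = 1.42e-08). WT and KO overlapped in both treatments, with log2 fold changes of 0.12 (95% interval -0.05 to 0.30, edgeR adjusted p = 0.352) in M0 and 0.01 (-0.16 to 0.18, adjusted p = 0.952) in M2.

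The balance of both beta chains shifted with IL-4. Csf2rb2 held 58.4, 55.2 and 53.2% of their joint counts in WT M0 and 42.9, 41.7 and 40.4% in WT M2, and 54.2, 54.1 and 55.1% in KO M0 and 38.7, 38.0 and 37.8% in KO M2. The share was thus lower in every treated library than in every untreated one, by 13.9 percentage points in WT and 16.3 in KO (exact permutation p = 0.1, two-sided, the smallest p that 3 against 3 libraries allow). KO M2 also lay below WT M2 without overlap, by 3.48 points (exact permutation p = 0.1), whereas in M0 the difference was 1.14 points with overlapping values (exact permutation p = 0.6). Of the 4 comparisons of this share, 0 can reach 0.05 at this sample size. For IL-4 the permutation exchanged libraries freely and did not keep M0 and M2 of 1 mouse together.

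The summed TPM of Csf2rb and Csf2rb2 was 321 ± 33.9 in WT M0 and 357 ± 25.6 in KO M0, below Csf1r in all 6 libraries at 0.389 to 0.478 of its level. In M2 the sum was 1188 ± 41.4 in WT and 1286 ± 108 in KO, above Csf1r in all 6 libraries at 1.41 to 1.54 times its level. Relative to the summed alpha chains Csf2ra and Il3ra, the beta chains were at 1.59 to 2.07 in M0 and at 5.94 to 7.37 in M2. These ratios compare transcripts per length and say nothing of the protein at the cell surface.

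**Figure D4:**
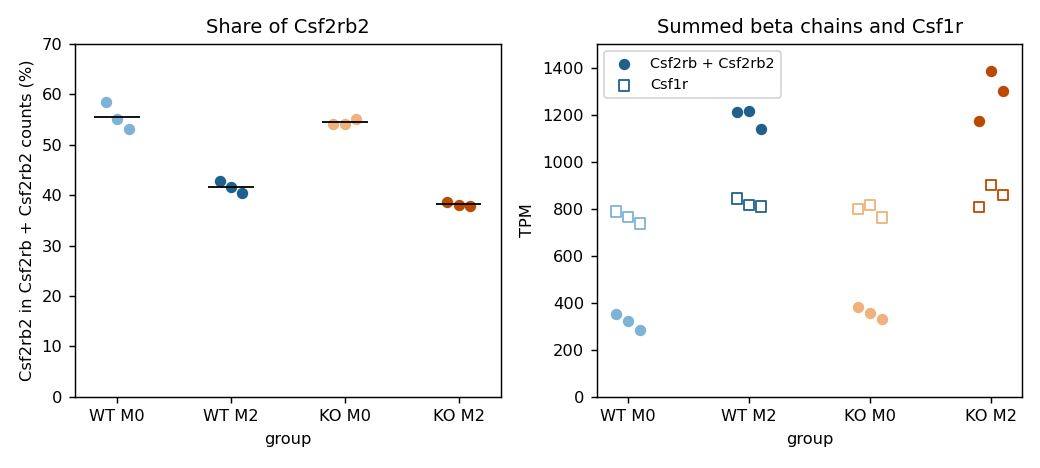
Left, share of Csf2rb2 in the counts of Csf2rb and Csf2rb2 per library (points) with the mean of 3 (bars). Right, summed TPM of both genes (filled circles) and TPM of Csf1r (open squares) per library. The share falls from 53.2 to 58.4% in M0 to 37.8 to 42.9% in M2, and the summed beta chains lie below Csf1r in every M0 library and above it in every M2 library.

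Csf3r (ENSMUSG00000028859, chr4:126024550-126044440, plus strand), which encodes the G-CSF receptor, rose with IL-4 from a low level. It was at 7.09, 6.29 and 4.26 TPM in WT M0 and 26.7, 25.4 and 18.2 TPM in WT M2, and at 4.89, 4.65 and 4.78 TPM in KO M0 and 23, 23.6 and 21.1 TPM in KO M2. The rise was 4.45-fold in WT (log2 2.15, SE 0.16, edgeR adjusted p = 2.07e-07) and 4.73-fold in KO (log2 2.24, SE 0.16, adjusted p = 1.14e-07). WT replicate 3 had the lowest WT value in both treatments, and the genotypes overlapped (log2 fold changes -0.15 in M0 and -0.06 in M2, edgeR adjusted p = 0.644 and 0.858). The sum of the neutrophil markers was also lowest in that replicate, at 19.8 TPM against 45.2 and 49.7 TPM in WT M0. With IL-4 the sum was 13.2 to 31.4 TPM in WT M2 and 12.0 to 17.2 TPM in KO M2. The part of neutrophils in the values of Csf3r was not tested.

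Kit and Flt3, the receptors of progenitor cells, had few counts. Kit (ENSMUSG00000005672, chr5:75574916-75656722, plus strand) had 6 to 17 counts per library, or 0.39, 0.21 and 0.17 TPM in WT and 0.12, 0.06 and 0.16 TPM in KO without treatment. With IL-4 it was at 0.55, 0.21 and 0.32 TPM in WT and 0.08, 0.28 and 0.2 TPM in KO. With 40 counts in the WT M0 group and 20 in the KO M0 group, the log2 fold change was -1.18 (95% interval -2.03 to -0.34, edgeR adjusted p = 0.0758), and in M2 it was -0.70 (-1.51 to 0.10, adjusted p = 0.309). The transcript length estimated for Kit varied from 2122 to 5162 nucleotides between libraries, which adds to the spread of its TPM. Flt3 (ENSMUSG00000042817, chr5:147330741-147400489, minus strand) had 0 counts in 7 libraries and at most 4 in the other 5, 12 in all. The mast cell genes Cpa3, Tpsb2 and Mcpt4 had 0 counts in every library, and the 7 mast cell and progenitor markers summed to between 1.42 and 6.27 TPM. Only Gata2 and Cd34 among these markers were tested, and 0 were called between genotypes with edgeR or DESeq2 (1 unadjusted p under 0.05 in M0, 0 in M2). With IL-4, Cd34 was called higher in WT (log2 fold change 1.41, edgeR adjusted p = 0.0184) but not in KO (0.91, 0.0826). Gata2 was called in neither (0.36 and 0.82, edgeR adjusted p = 0.385 and 0.0516). The part of progenitor cells in the responses to IL-4 was not tested.

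The proteins that act below these receptors were followed with lists of genes, whose counts stand against calls for 5.50% of all genes as higher and 4.27% as lower in KO M0, 24.9% and 25.1% with IL-4 in WT, and 26.8% and 26.0% in KO. Of 7 JAK and STAT genes, 2 were higher and 1 lower in KO M0, 5 rose and 2 fell with IL-4 in WT, and 2 rose and 2 fell in KO. Jak2, the kinase bound by the beta chains, fell in KO M0 (17 ± 2.8 to 12 ± 0.474 TPM, log2 fold change -0.50, edgeR adjusted p = 0.00354) and rose with IL-4 by 2.45-fold in WT and 2.98-fold in KO (adjusted p = 4.32e-08 and 7.27e-09). Tyk2 was higher in KO M0 (log2 fold change 0.19, adjusted p = 0.0133). With IL-4, Stat5a, a main STAT of these receptors, rose by 0.27 in WT and 0.36 in KO, and Jak1 by 0.30 in WT (log2 scale, edgeR adjusted p of at most 0.00762). Stat5b, its close relative, fell by 0.24 in WT and by 0.34 in KO on the same scale (edgeR adjusted p = 0.00156 and 7.89e-05), and was named after its values were seen. The median log2 fold change of the list was 0.04 between genotypes in M0.

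Of 13 negative regulators, 1 was higher and 1 lower in KO M0, 8 rose and 3 fell with IL-4 in WT, and 7 rose and 4 fell in KO, where 9.78% of all genes were called in M0, 50.0% with IL-4 in WT and 52.8% in KO. The SOCS family and CISH bind activated receptors and JAKs and are classical STAT targets, and IL-4 raised Cish (0.373 to 37.3 TPM in WT M0 and M2), Socs2 (0.273 to 17.2 TPM) and Socs1 (3.34 to 112 TPM) by log2 fold changes of 6.73, 6.26 and 5.13 (edgeR adjusted p of at most 2.2e-09). In KO the log2 fold changes were 7.0, 6.10 and 5.58. Socs3, an inhibitor at the G-CSF receptor, fell with IL-4 in WT (24 ± 2.99 to 4.9 ± 0.464 TPM) and less in KO (12.3 ± 2.81 to 6.69 ± 0.417 TPM). It was lower in KO M0 (-0.89 on the log2 scale, edgeR adjusted p = 0.00306), and the difference between the responses was 1.38 (adjusted p = 0.00755). Cblb, which encodes a ubiquitin ligase, was higher in KO M0 (0.45, adjusted p = 0.00631). IL-4 raised it in both genotypes, by 3.0 in WT and 2.45 in KO on the log2 scale, and the rise was smaller in KO (difference -0.55, edgeR adjusted p = 0.025).

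Of 19 genes of receptor-proximal signalling, 4 were higher and 0 lower in KO M0 (all genes: 5.50% and 4.27%), among them Pik3cd (log2 fold change 0.31, edgeR adjusted p = 0.0122) and Lyn (0.20, 0.0419). With IL-4, 6 rose and 8 fell in each genotype, where 50.0% of all genes were called in WT and 52.8% in KO. The kinase gene Fyn rose most, from 34.3 ± 4.37 to 191 ± 6.11 TPM in WT and from 38.3 ± 1.16 to 190.2 ± 13.4 TPM in KO (edgeR adjusted p = 6.42e-12 and 7.69e-12). On the log2 scale Gab2, an adaptor, rose by 1.22 in WT and 0.77 in KO, and Lyn fell by 0.72 in WT and 0.98 in KO. The edgeR adjusted p was at most 9.5e-05 for these, and neither response differed between genotypes by call (edgeR adjusted p = 0.167 and 0.0975). Of 11 other cytokine and growth factor receptor genes, 6 were tested, of which Il7r (0.46, adjusted p = 0.0128) and Il2rg (0.28, 0.0331) were higher in KO M0, as were 5.50% of all genes. IL-4 raised Il6st, the shared subunit of the IL-6 family, by 4.2-fold in WT and 3.27-fold in KO, and 3 of the 6 rose and 1 fell in WT against 2 and 1 in KO, against 50.0% and 52.8% of all genes called. Lifr rose in both (1.84-fold and 1.74-fold), and Il7r rose in WT (1.4-fold). Il6ra, the IL-6 receptor, fell by 0.24 in WT and by 0.34 in KO on the log2 scale (edgeR adjusted p = 0.0199 and 0.0019).

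CSF1R and membrane-bound M-CSF are shed by ADAM17. Of the 3 shedding genes, 0 were called in M0 with edgeR or DESeq2 (0 unadjusted p under 0.05), and IL-4 lowered Adam17 (log2 fold changes -0.45 in WT and -0.61 in KO, edgeR adjusted p = 1.01e-06 and 5.36e-08) and raised Adam10 (0.60 and 0.44) and Rhbdf2 (0.77 and 0.94), which guides ADAM17 to the surface. Of 7 transcription factors known to act at the promoter of Csf1r, Fli1 was higher (0.34, adjusted p = 0.00198) and Cebpb lower (-0.48, adjusted p = 0.018) in KO M0. With IL-4, 2 rose and 2 fell in WT and 3 rose and 1 fell in KO, against 50.0% and 52.8% of all genes, the shares that apply to the shedding and early genes too. Spi1, which encodes PU.1, fell by 0.23 on the log2 scale in WT (adjusted p = 0.00417), and Cebpb fell by 0.62 in WT. Ets2 rose in both genotypes (0.47 and 0.46), and Irf8 (0.54) and Cebpa (0.38) rose in KO. The responses of Cebpb (difference 0.82, edgeR adjusted p = 0.0151) and Fli1 (-0.33, adjusted p = 0.0306) differed between genotypes. Of 6 genes that M-CSF switches on early or for the cell cycle, Junb was lower in KO M0 (-0.28, adjusted p = 0.0373), and 3 rose and 2 fell with IL-4 in each genotype, with Egr2 up 24.9-fold, Myc up 1.57-fold and Fos at 0.218 of its untreated level in WT. In KO these were 30.3-fold, 1.92-fold and 0.21.

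Between the genotypes in M2, edgeR called 0 genes in each of these 7 lists. An unadjusted p under 0.05, which 20.3% of all 12846 genes had in M2, was found there for 1 of 7 JAK and STAT genes, 3 of 13 negative regulators, 1 of 19 genes of receptor-proximal signalling, 3 of 6 other receptors, 2 of 3 shedding genes, 3 of 7 factors of the Csf1r promoter and 2 of 6 early and cycle genes. DESeq2 called 2 of these promoter factors, 1 early or cycle gene and 0 in the other lists. Of the remaining markers, the 3 monocyte genes summed to 9.93 to 19.4 TPM and the 6 dendritic cell genes to 0.19 to 1.1 TPM, and edgeR called 0 of either list between genotypes, with 1 monocyte gene at an unadjusted p under 0.05 in M0. Zbtb46, a transcription factor of dendritic cells and the 1 gene of that list with enough counts to be tested, rose with IL-4 from 0.203 to 0.873 TPM in WT and from 0.16 to 0.867 TPM in KO (log2 fold changes 2.54 and 2.45, edgeR adjusted p = 1.32e-05 and 9.23e-06). It was named after its values were seen and moved in the same direction as Csf2rb, Csf2rb2 and Csf3r. The other genes of that list had group means of 0.117 TPM or less. Clec9a, Siglech and Xcr1 had lower means in M2 than in M0 in both genotypes, and Ccr7 and Cd209a slightly higher ones. The part of dendritic cells in the rises of Csf2rb, Csf2rb2 and Csf3r was not tested.

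As a description, the genes whose pattern was most like that of Csf1, Csf1r and Csf2rb were found by Pearson's r of log2(TPM + 1) over the 12 libraries among 9746 genes whose mean reached 5 CPM. For Csf1 they were Cd81 (r = 0.983), Cavin1 (0.976) and Rrs1 (0.975). Cd81, for example, had means of 240.3 TPM in WT and 202 TPM in KO without treatment and of 302 and 300.3 TPM with IL-4, so that it shared the low value in KO M0 and the level common to both genotypes in M2. For Csf1r, whose values span a narrow range, they were Ncstn (0.973), Fbxw8 (0.966) and Med25 (0.96). For Csf2rb they were Galnt6 (0.998), Plxdc2 (0.998) and Ms4a6d (0.997), each raised in M2 of both genotypes, for instance Plxdc2 from 6.01 to 55.3 TPM in WT. The 12 points share the 4 groups, which set most of each r.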

How the data were processed

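RNA-Seq libraries were prepared from poly(A) RNA with a directional kit and sequenced as single reads of 75 nt. The authors mapped them to GRCm38 (mm10) with their Grape-nf workflow, and FastQC 0.11.2 is among the tools named in the submitters' processing notes. The authors deposited a table per library with expected counts of genes, which need not be whole because reads matching several genes are divided. The same tables hold TPM, posterior SDs, credibility bounds and effective lengths, which the authors deposited as signal values. Deposited tables of the authors' own DESeq2 1.40.2 comparisons (log2 fold changes, p-values) were used for gene symbols only.

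Groups came from the sample labels. Symbols were taken from the authors' table for 21000 genes and from GENCODE M21 for 16570. Expected counts were rounded and, after filterByExpr, 12846 genes were fitted with edgeR 4.0.16 (R 4.3.3, quasi-likelihood test with TMM factors and a coefficient for each group over all 12 libraries), with Benjamini-Hochberg adjustment and a biological coefficient of variation of 8.08%. Alternatives were DESeq2 1.42.0, RLE factors, other filters on low counts, limma 3.58.1 on log2(TPM + 1), log2(TPM + 0.1) and posterior mean TPM, a replicate block, only the libraries of a comparison, and leaving out each library. Code was tested on simulated data. Libraries of 1 number in M0 and M2 were taken as 1 mouse, because their deviations from the group means correlated in all 6 pairs (r = 0.164 to 0.449). Between WT and KO of the same number r was -0.0782 to 0.0782, so that the numbers did not pair the genotypes. No 2 libraries of a group were duplicates (chi-square per degree of freedom at least 4.55). Intervals are 95% intervals, and limits of a 0 cover counting error only. Sequences came from GENCODE M21 and RefSeq, without promoters of chromosome 18, and were aligned with Biopython 1.88.

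All 9 genes are named with values. From each list the up to 3 called genes with the largest change and a mean of at least 5 CPM are named, except for some that are not reported here, and marker genes and Il5ra are named beside the results they touch. The genes, lists and tests were chosen with earlier results of these data known.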

Additional observations from a re-analysis of the deposited data

Results flagged for a closer look

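Csf1 stood out because WT and KO cells responded differently to IL-4 by the test of the difference itself. The log2 response was 1.16 in WT and 2.15 in KO, a difference of 0.993 (SE 0.18, edgeR adjusted p = 0.0128, 3 mice per genotype). The same values give the lower level in KO M0 (log2 fold change -1.06) and the overlapping levels in M2 (-0.07), so this is not a separate result. Across 8 other settings the difference ranged from 0.566 to 1.0 and was called in 5, but not with limma on TPM. The ratio of M2 to M0 was higher in each of the 3 KO mice than in each of the 3 WT mice. The stromal markers summed to 3.54 to 12.9 TPM in KO M0 and 3.27 to 11 TPM in KO M2, and their part in the M0 level and in the response was not tested. By the same test, 5 genes of the ligand and pathway lists also responded differently in WT and KO. Of all genes, 3.24% were called, 1.11% more positive and 2.13% more negative in KO. The 5 genes came from 2 tested ligands (Csf1 included), 13 negative regulators and 7 factors of the Csf1r promoter. DESeq2 called 4 of these promoter factors. In the other lists edgeR called 0 genes, whereas DESeq2 called 2 of 6 other receptors and 3 of 19 genes of receptor-proximal signalling. DESeq2 also called 1 of 7 JAK and STAT genes, 1 of 3 shedding genes and 2 of 6 early and cycle genes. The log2 response was higher in KO for Kitl (difference 0.628, edgeR adjusted p = 0.0297), Socs3 (1.38, adjusted p = 0.00755) and Cebpb (0.824, adjusted p = 0.0151), and lower in KO for Cblb (-0.551, adjusted p = 0.025) and Fli1 (-0.329, adjusted p = 0.0306).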

How the results depend on the processing

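In M0, between 1 and 3 genes were called when 1 library was left out (1 without WT replicate 2 and 1 without KO replicate 2, Csf1 in both). In M2, where 0 were called, Csf2rb alone (1 gene) was called with no filter on low counts and with DESeq2, and 0 or 1 when 1 library was left out (1 without KO replicate 1). For the difference between the IL-4 responses, 0 were called with limma on log2(TPM + 1), on log2(TPM + 0.1) and on log2(posterior mean TPM + 1), and 2 (Csf1 and Csf2ra) with the mouse as a replicate block, while the fits without 1 library gave 1 gene each. The causes were not tested. The replicate block also called Csf2ra for IL-4 in WT, and the 3 limma fits on TPM called it lower with IL-4 in KO (log2 fold changes -0.157 to -0.152, limma adjusted p of 0.0462 to 0.047). Il3ra was called lower with IL-4 in WT in 1 of 9 other settings. No direction of a called value was reversed in any setting. From TPM in place of counts, the mean share of Csf2rb2 was 39.0 to 56.4% instead of 38.2 to 55.6%, and the p of each comparison was the same. Kit, with 6 to 17 counts, and Flt3 are limited by depth.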
